A study of Homo sapiens with 8 samples.

Results

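MAP2K3 and 7 other kinases of the p38 stress pathway (MAP2K6, MAP2K4, MAPK13, MAPK14, MAPKAPK2, MAPKAPK3 and MAP3K5) were followed across 4 groups of Caco-2 cells, a human colorectal cancer cell line grown here as an adherent monolayer. Every probe whose platform gene symbol was 1 of these 8 symbols was taken, which gave 14 probes for 7 of the 8 genes, out of 47322 probes on the array. Of these 14 probes, 10 were detected on at least 2 of the 8 arrays and entered the tests, among 18231 such probes in all. No probe analysed here carried the symbol MAPK14, so MAPK14 was not analysed here. The set was selected on the log2 changes of MAP2K3, whose signal moved in opposite directions with gain and loss of ESRP1. The changes of MAP2K3 are therefore given as a description, with no test.

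The ESRP1-overexpressing cells carried an ESRP1 cDNA in the pLX304 lentivirus and the Empty cells were their vector control, both selected with blasticidin. The ESRP1-silenced cells carried a short hairpin RNA against ESRP1 in the pLKO.1 lentivirus and the Scr cells a scrambled hairpin, both selected with puromycin. ESRP1 is an epithelial RNA-binding protein known for its control of alternative splicing. Each group had 2 arrays. Both ESRP1-silenced arrays are labelled with the same hairpin, sh4, so effects of that hairpin and of lower ESRP1 cannot be told apart. The ESRP1-overexpressing and Empty arrays lay on 1 chip and the ESRP1-silenced and Scr arrays on another. Each comparison thus stayed within a chip, a vector and a drug, whereas a difference between Empty and Scr cells cannot be assigned to any of these.

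The p38 cascade relays stress and cytokine signals through successive kinase tiers. MAP3Ks such as MAP3K5 (ASK1) phosphorylate the MAP2Ks. MAP2K3 (MKK3) and MAP2K6 (MKK6) activate the p38 kinases, among them MAPK14 and MAPK13. In turn p38 activates MAPKAPK2 and MAPKAPK3, which act on RNA-binding proteins and small heat shock proteins. MAP2K4 (MKK4) serves mainly the JNK branch and can also phosphorylate p38. In intestinal epithelium the pathway is known for its part in inflammatory signalling, stress survival and differentiation. The cascade is switched by phosphorylation, which these arrays did not measure, so all values below are RNA levels.

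Values are log2 levels, that is, probe signals after background correction and quantile normalization. A probe was called detected on an array at a detection p under 0.01 against that array's negative control probes. Adjusted p-values came from a limma fit of all 8 arrays with Benjamini-Hochberg adjustment over the 18231 probes, two-sided, and a change was called at an adjusted p under 0.05. The sources do not state whether the arrays of a group came from separate cultures, so these p-values measure only how far the arrays spread, in part perhaps for technical reasons. With 2 arrays a side, the smallest p that an exact permutation test could return is 0.333. Between 15153 and 17535 probes were detected per array, the median signal ranged from 167.1 to 227.3, and arrays of a group correlated at 0.984 to 0.991. The ESRP1 probe read 9.75 and 9.96 in ESRP1-overexpressing cells, against 8.26 and 7.91 in Empty cells (log2 fold change 1.77, adjusted p = 0.0038 from limma). It read 6.37 and 6.16 in ESRP1-silenced cells, not detected on either array, against 8.03 and 8.32 in Scr cells. That is at least 3.09-fold lower in ESRP1-silenced cells (adjusted p = 0.047 from limma). With any single array omitted the adjusted p lay between 0.072 and 0.32, past the threshold. Of 14 enterocyte epithelium markers, 8 to 11 were detected per array. VIL1, CDX2, KRT8, KRT18, KRT19, CDH1 and EPCAM were detected on all 8, while CDX1 and FABP1 were detected on none. Among markers of other cell types, COL3A1, DCN and THY1 of fibroblasts, CDH5, VWF, KDR and TIE1 of endothelium and PTPRC, CD3E and ITGAM of leukocytes were detected on no array. Of the remaining fibroblast and endothelial markers, LUM was detected on 6 arrays, COL1A1 on 5, COL1A2 on 1, ESAM on 6 and PECAM1 on 4. Of the 6 leukocyte genes measured, 3 (CD68, CD14 and LCP1) were detected on all arrays. The summed linear level of that list was 6563 and 7187 in ESRP1-overexpressing cells, against 16938 and 16308 in Empty cells. Of the 8 fibroblast genes, 2 to 5 were detected per array, PDGFRA and PDGFRB on all 8, and their summed level was 3499 and 3416 in ESRP1-overexpressing cells, against 1749 and 1535 in Empty cells. The leukocyte sum was 8528 and 8807 in ESRP1-silenced cells, against 8738 and 8320 in Scr cells, and the fibroblast sum was 3081 and 3189 in ESRP1-silenced cells, against 2617 and 2746 in Scr cells. The endothelial sum was 342 and 372 in ESRP1-overexpressing cells, against 461 and 550 in Empty cells. It was 461 and 439 in ESRP1-silenced cells, against 642 and 585 in Scr cells. Each sum took in every gene of its list with a named probe, detected or not. Of the 6 endothelial genes only 0 to 2 were detected per array, so that sum includes levels below the detection limit. On ESRP1-overexpressing replicate 1 none was detected, so the 342 came wholly from undetected genes. The part of these markers in the results below was not tested.

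On its brightest probe, MAP2K3 RNA was highest in ESRP1-overexpressing cells and lowest in ESRP1-silenced cells, with the controls between them. The level was 1.56-fold higher in ESRP1-overexpressing than in Empty cells and 2.47-fold lower in ESRP1-silenced than in Scr cells. None of the 7 tested probes of the other kinases was called, beside 7.43% of all tested probes called with overexpression and 0.132% with silencing. Among 63 tested genes that surround them in the pathway, 2 rose and 3 fell with overexpression, beside 8.07% of all genes called. With silencing 1 fell, beside 0.157% of all genes. PTGS2 (cyclooxygenase-2), whose mRNA is stabilised through MAPKAPK2, was called in both comparisons and in opposite directions. Both PTGS2 calls depended on single arrays, as given below. IER3 and CXCL8, tested from the same list, were not called with silencing.

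MAP2K3 encodes a dual-specificity kinase whose main substrates are the p38 kinases. RefSeq (GRCh38.p14) annotates 2 transcription starts for MAP2K3 on the plus strand of chromosome 17. Both are shown because MAP2K3 is the gene that the comparisons turn on. Each window runs from 250 bases before to 50 bases after the start, and capitals mark matches, on either strand, to 4 motifs of promoters and stress responses. AP-1, the site of FOS and JUN proteins, was searched as TGANTCA. The CRE, the site of CREB and ATF proteins, was searched as TGACGTCA. The GC box of SP1 was searched as GGGCGG, which reads CCGCCC from the other strand. The CCAAT box was searched as CCAAT. No match overlapped another.
MAP2K3 first start, chr17:21284461-21284760: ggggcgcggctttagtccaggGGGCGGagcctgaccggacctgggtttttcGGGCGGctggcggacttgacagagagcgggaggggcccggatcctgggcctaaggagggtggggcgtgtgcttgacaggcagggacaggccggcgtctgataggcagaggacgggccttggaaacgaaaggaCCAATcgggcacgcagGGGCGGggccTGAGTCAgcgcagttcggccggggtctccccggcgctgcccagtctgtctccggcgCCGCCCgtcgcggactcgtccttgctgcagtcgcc
MAP2K3 second start, chr17:21287786-21288085: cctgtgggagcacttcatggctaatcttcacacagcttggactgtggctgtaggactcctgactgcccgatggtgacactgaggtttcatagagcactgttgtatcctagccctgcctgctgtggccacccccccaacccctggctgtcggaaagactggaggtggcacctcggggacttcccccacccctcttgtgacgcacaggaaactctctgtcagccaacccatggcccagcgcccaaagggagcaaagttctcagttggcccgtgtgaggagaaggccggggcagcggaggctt
The first window held 4 GC boxes, 1 CCAAT box and 1 AP-1 match, TGAGTCA, which began at position -41 from the start. The second window matched none of the 4 motifs. AP-1 letters were present in 7.71% of 35116 RefSeq promoter windows of this length, CRE letters in 1.85%, GC boxes in 45% and CCAAT boxes in 34.6%. Among the 11 windows listed for the members (none for MAPKAPK2), the first MAP2K3 window was the only one with AP-1 letters, 9 held a GC box and none held the CRE. MAP2K3 and MAPK14 held the CCAAT box. A match of letters is not a measured binding site, and the arrays do not say from which start the MAP2K3 RNA came.

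MAP2K3 had 6 probes, of which 3 were tested and 3 (ILMN_1668909, ILMN_1680777 and ILMN_1740696) were detected on none of the 8 arrays. The brightest, ILMN_1790534, read 11.17 and 11.12 in ESRP1-overexpressing cells, against 10.36 and 10.65 in Empty cells. It read 9.19 and 9.44 in ESRP1-silenced cells, against 10.63 and 10.61 in Scr cells. Both ESRP1-overexpressing arrays lay above all 4 control arrays and both ESRP1-silenced arrays below them, while the Empty and Scr arrays overlapped each other. Group means were 11.15 ± 0.04 in ESRP1-overexpressing and 10.50 ± 0.20 in Empty cells, and 9.31 ± 0.18 in ESRP1-silenced and 10.62 ± 0.01 in Scr cells (SD, n = 2 arrays each). The log2 fold changes were 0.64 for ESRP1-overexpressing over Empty cells and -1.31 for ESRP1-silenced over Scr cells. In bulk RNA, fewer cells that express a gene and less RNA per cell cannot be told apart. The deposited signals, before any correction, showed the same order within each chip. They were 1946 and 1791 in ESRP1-overexpressing cells against 894 and 1172 in Empty cells, and 998 and 1084 in ESRP1-silenced cells against 2366 and 1892 in Scr cells.

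The second tested probe, ILMN_1801175, read 7.96 and 8.13 in ESRP1-overexpressing cells, against 6.89 and 7.44 in Empty cells, where replicate 1 was not detected. It read 6.82 and 6.79 in ESRP1-silenced cells, against 7.90 and 7.69 in Scr cells. Within each chip the arrays did not overlap, with ESRP1-overexpressing above Empty and ESRP1-silenced below Scr. Empty replicate 1 was below the detection limit, so it has no order against the ESRP1-silenced arrays, which lay on the other chip. Its log2 fold changes were 0.88 for ESRP1-overexpressing over Empty cells and -0.99 for ESRP1-silenced over Scr cells. With the authors' normalized values these were 0.51 and -0.54, a smaller change in the same directions. The dimmest tested probe, ILMN_1815238, was detected only on ESRP1-overexpressing replicate 1 and Scr replicate 2. It read 7.62 and 6.84 in ESRP1-overexpressing cells, against 6.05 and 6.31 in Empty cells, neither detected. It read 6.18 and 6.36 in ESRP1-silenced cells, neither detected, against 6.47 and 7.22 in Scr cells. No lower bound of the fold is given for either comparison, since the brighter group held an undetected array in each. All 4 Empty and ESRP1-silenced arrays of this probe were thus below the detection limit and have no order between them. On this probe the fitted log2 values were 1.05 and -0.57, and 0.48 and -0.25 with the authors' values.

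**Figure D1:**
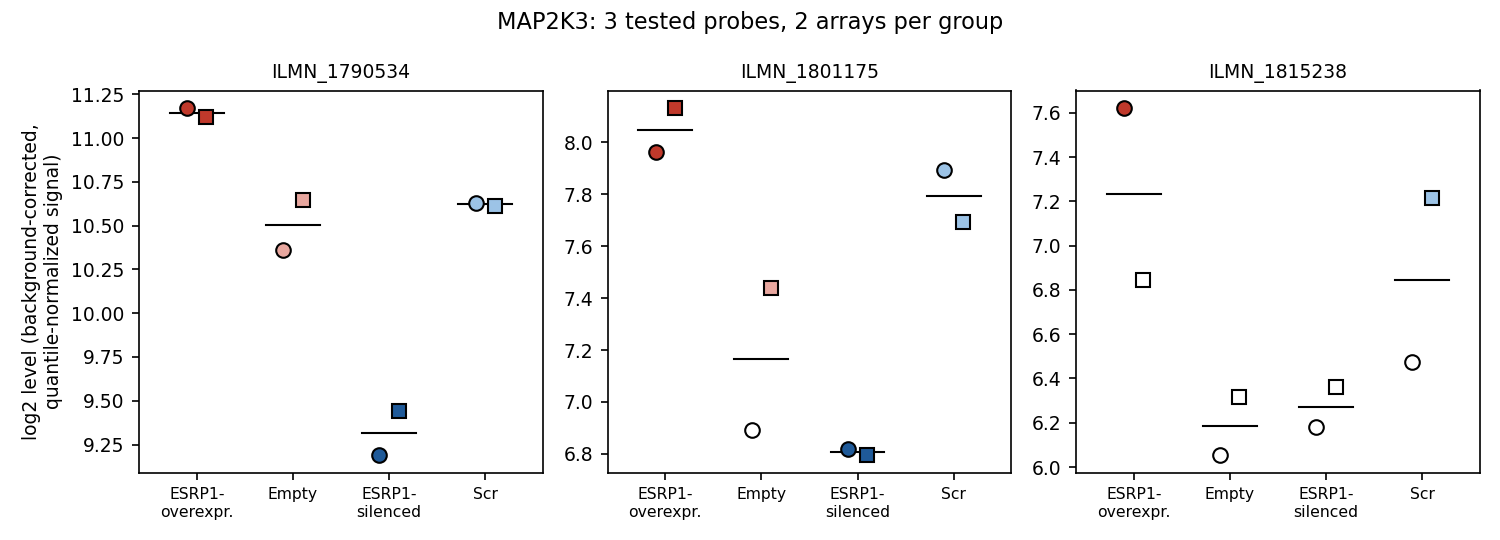
Log2 level (y axis) of the 3 tested MAP2K3 probes on each array, by group (x axis). Circles are replicate 1, squares replicate 2, open symbols arrays on which the probe was not detected, and bars the mean of 2 arrays. On ILMN_1790534 and ILMN_1801175 both ESRP1-overexpressing arrays lie above the Empty arrays and both ESRP1-silenced arrays below the Scr arrays. ILMN_1815238 was detected on only 2 arrays, so most of its points have no order between them.

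The order seen on the brightest probe, with both ESRP1-overexpressing arrays above and both ESRP1-silenced arrays below all 4 controls, was met by 305 of the 18231 tested probes (1.67%), and the opposite order by 321 (1.76%). Since MAP2K3 was picked for this pattern, nothing is read from its place among them. Leaving out 1 array of the comparison at a time moved the brightest probe's log2 fold change between 0.50 and 0.78 for overexpression and between -1.43 and -1.18 for silencing. The sign held in every case. For ILMN_1815238 the silencing value ranged from -0.94 without Scr replicate 1 to -0.20 without Scr replicate 2, and the overexpression value from 0.66 without ESRP1-overexpressing replicate 1 to 1.44 without replicate 2. For ILMN_1801175 the overexpression value ranged from 0.61 without Empty replicate 1 to 1.16 without Empty replicate 2.

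MAP2K6, the closest relative of MAP2K3 and the other dedicated activator of p38, was called in neither comparison. Its probe read 7.18 and 6.50 in ESRP1-overexpressing cells, against 7.02 and 6.90 in Empty cells, and only ESRP1-overexpressing replicate 1 was detected. It read 7.69 and 7.33 in ESRP1-silenced cells, both detected, against 7.13 and 6.28 in Scr cells, of which replicate 1 was detected. The ESRP1-silenced arrays thus lay above the Scr arrays, the direction opposite to that of MAP2K3, while the ESRP1-overexpressing arrays spanned the Empty ones. The log2 fold change for ESRP1-silenced over Scr cells was 0.81 (95% interval 0.02 to 1.59), with an unadjusted p of 0.045 and an adjusted p = 0.36 from limma, which missed the threshold. It was 0.38 to 1.23 when 1 array was left out at a time. MAP2K4 was measured by 2 probes, each detected on all 8 arrays. ILMN_2100689 read 9.38 and 9.52 in ESRP1-overexpressing cells, against 9.23 and 9.47 in Empty cells, and 9.61 and 9.75 in ESRP1-silenced cells, against 9.60 and 9.93 in Scr cells. The arrays overlapped in both comparisons. Its log2 fold changes were 0.10 (-0.28 to 0.48) and -0.09 (-0.47 to 0.29). ILMN_2100693 gave 0.24 (-0.10 to 0.58) for ESRP1-overexpressing over Empty cells and -0.04 (-0.38 to 0.30) for ESRP1-silenced over Scr cells. Neither MAP2K4 probe was called in either comparison.

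MAP3K5, the apoptosis signal-regulating kinase that responds to oxidative stress, was detected on both ESRP1-silenced and both Scr arrays and on none of the 4 ESRP1-overexpressing and Empty arrays. It read 6.87 and 7.33 in ESRP1-silenced cells, against 7.03 and 7.16 in Scr cells, with the Scr arrays between the ESRP1-silenced ones (log2 fold change 0.00, 95% interval -0.63 to 0.64, adjusted p = 1.00 from limma). The detected and undetected groups lay on different chips, with different vectors and drugs, which cannot be told apart, and no fold change is given for ESRP1-overexpressing against Empty cells.

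MAPK13 encodes p38 delta, the p38 isoform known for its expression in epithelia. It read 12.31 and 12.44 in ESRP1-overexpressing cells, against 12.79 and 12.75 in Empty cells. It read 12.27 and 12.15 in ESRP1-silenced cells, against 12.29 and 12.44 in Scr cells. The arrays did not overlap in either comparison, with the ESRP1-overexpressing arrays below Empty and the ESRP1-silenced arrays below Scr. The log2 fold change was -0.39 for ESRP1-overexpressing over Empty cells (95% interval -0.67 to -0.11, unadjusted p = 0.014, adjusted p = 0.097 from limma). It passed with quantile normalization alone (adjusted p = 0.049 from limma) and with a trended, robust variance prior (adjusted p = 0.017 from limma). For ESRP1-silenced over Scr cells it was -0.16 (-0.44 to 0.13, adjusted p = 0.61 from limma). The direction of MAPK13 in ESRP1-overexpressing cells was opposite to that of MAP2K3, and neither comparison passed the test over all probes.

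The kinases below p38 were well above background. MAPKAPK2 (MK2), which phosphorylates the mRNA-destabilising protein tristetraprolin, read 10.40 and 10.47 in ESRP1-overexpressing cells, against 10.60 and 10.70 in Empty cells. It read 10.74 and 10.89 in ESRP1-silenced cells, against 10.72 and 10.68 in Scr cells. The arrays did not overlap in either comparison, yet the log2 fold changes were only -0.21 (-0.49 to 0.06, adjusted p = 0.29 from limma) and 0.12 (-0.15 to 0.40, adjusted p = 0.68 from limma). Its other probe, ILMN_1656144, was detected on none of the 8 arrays. MAPKAPK3 (MK3), a close relative of MAPKAPK2, read 12.55 and 12.38 in ESRP1-overexpressing cells, against 12.42 and 12.53 in Empty cells, with overlapping arrays (log2 fold change -0.01, -0.35 to 0.34). It read 11.97 and 11.67 in ESRP1-silenced cells, against 12.02 and 12.15 in Scr cells, lower on both arrays (log2 fold change -0.27, -0.61 to 0.08, adjusted p = 0.46 from limma).

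**Figure D2:**
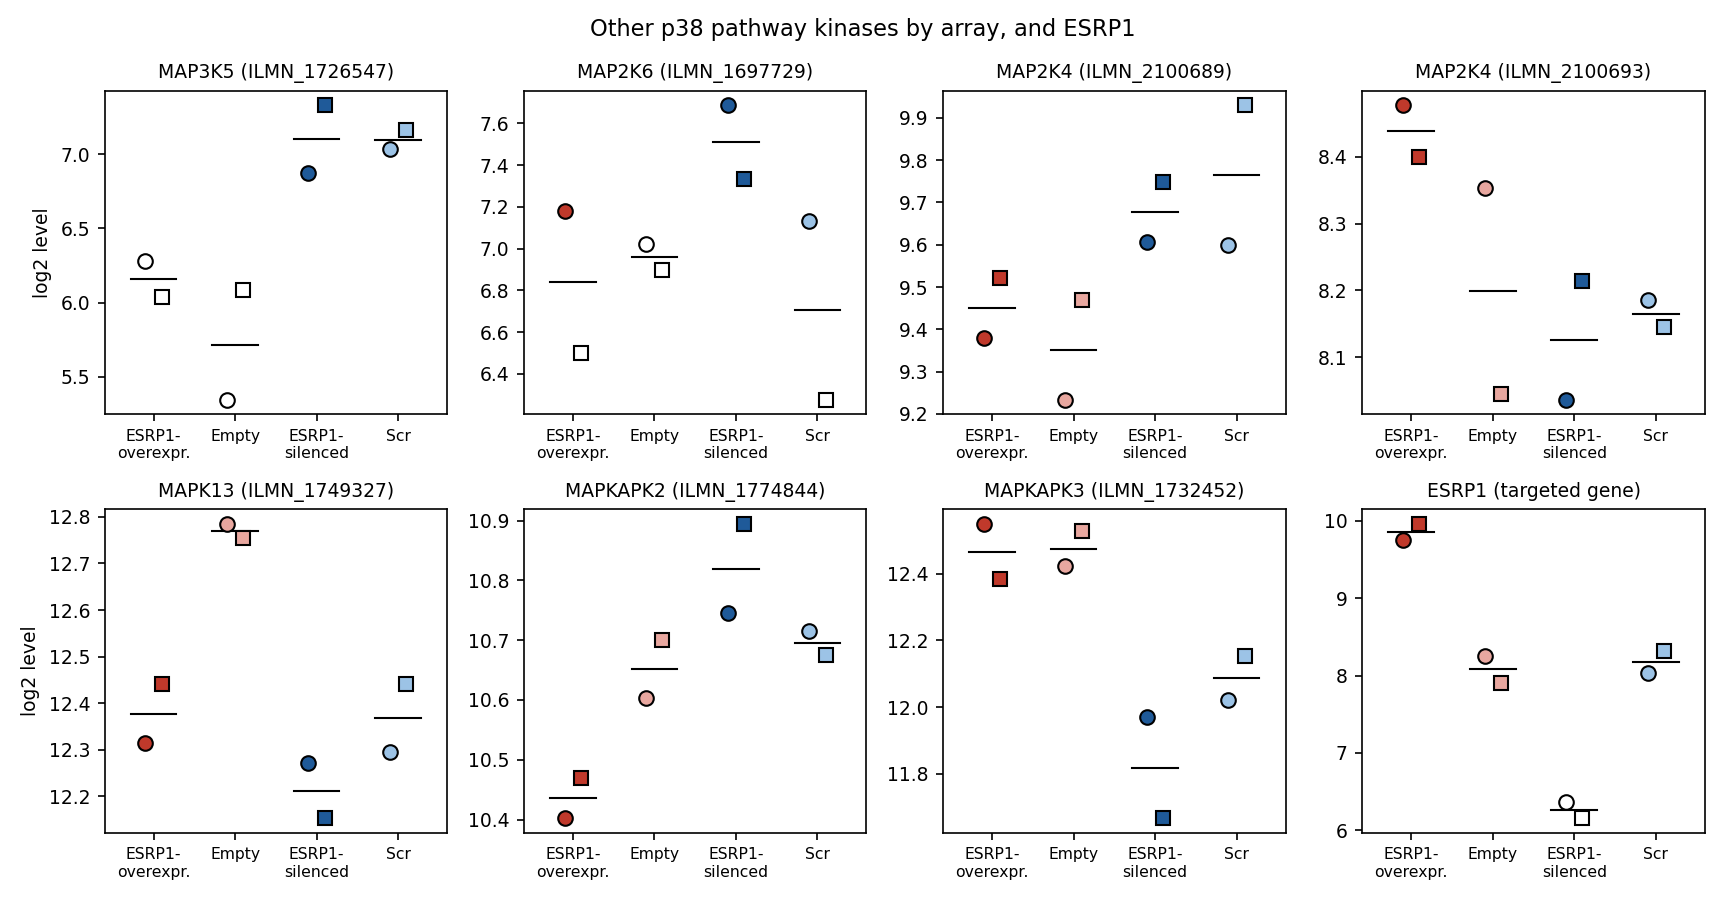
Log2 level (y axis) of the other member probes, and of ESRP1, on each array by group (x axis), each panel on its own scale. Symbols are as for MAP2K3. MAP3K5 was detected only on the ESRP1-silenced and Scr arrays, and the ESRP1-overexpressing arrays of MAPK13 lie below the Empty arrays at 12.31 and 12.44 against 12.79 and 12.75.

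Over the 6 kinases other than MAP2K3, 7 of 8 probes were tested. In ESRP1-overexpressing against Empty cells limma called 0 of 7, beside 7.43% of all tested probes called in that comparison, and 1 of 7 had an unadjusted p under 0.05, beside 25.9%. In ESRP1-silenced against Scr cells it called 0 of 7, beside 0.132% of all tested probes, and 1 of 7 had an unadjusted p under 0.05, beside 13.5%. On the difference between the 2 effects it called 0 of 7, beside 3.2% of all tested probes, and 0 of 7 had an unadjusted p under 0.05, beside 20.6%. The overexpression and difference values in this paragraph include MAP3K5, detected on no ESRP1-overexpressing or Empty array. With its fold filter, the methods' t-test also called 0 of 7 in both comparisons, before and after Benjamini-Hochberg adjustment. The arrays did not overlap between groups for 3 of 7 probes with overexpression, against 57.7% of all tested probes, and for 4 of 7 with silencing, against 45.4%, so such separation was common across the array. The median log2 fold change of the 7 probes was -0.01 with overexpression and -0.04 with silencing, beside a median of 0.00 over all tested probes in each comparison.

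**Figure D3:**
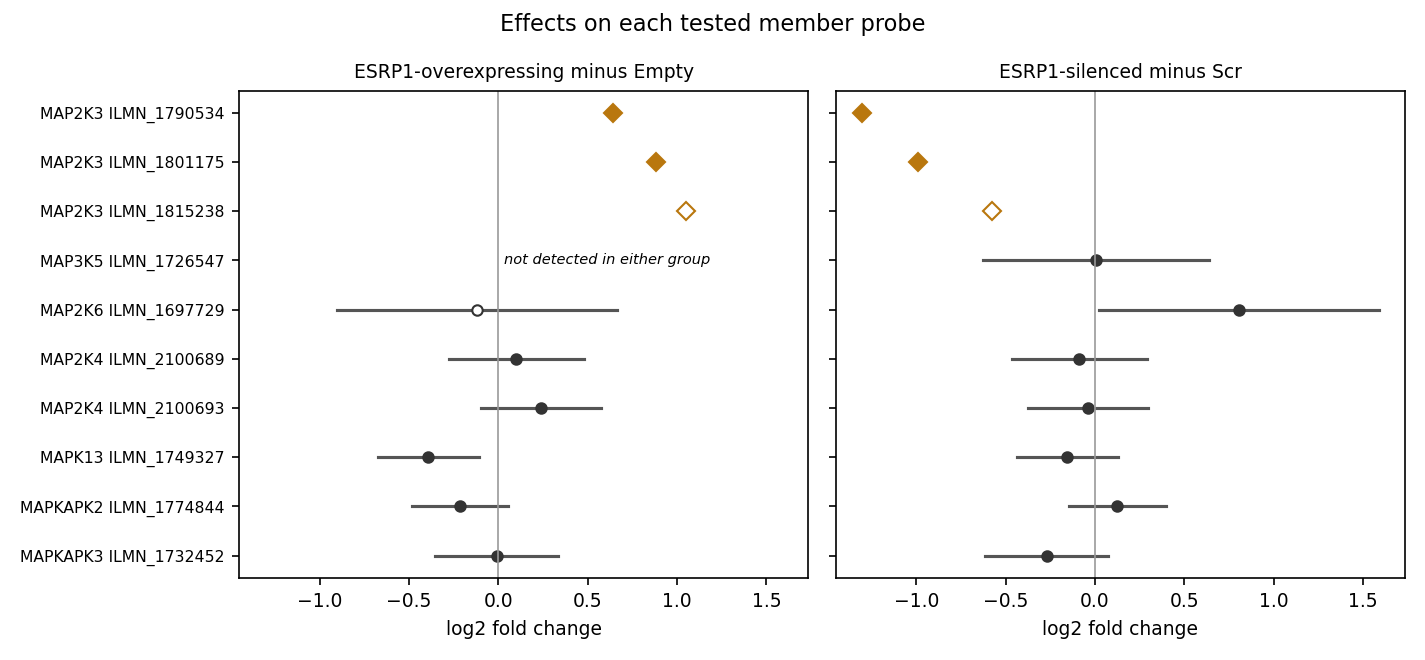
Log2 fold change (x axis) of each tested member probe (y axis) for ESRP1-overexpressing minus Empty (left) and ESRP1-silenced minus Scr (right). Circles are fitted values with 95% intervals from limma, diamonds are the MAP2K3 probes, which were chosen for these changes and are drawn without intervals, and open symbols mark probes not detected on either array of 1 of the 2 groups. The MAP2K3 diamonds lie at 0.64 to 1.05 on the left and -1.31 to -0.57 on the right, while the circles lie between -0.39 and 0.24 on the left, where MAP3K5 was detected in neither group and is not drawn, and -0.27 and 0.81 on the right.

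The surrounding pathway was read from 5 lists of 85 genes in all, of which 78 had a named probe and 63 were tested, with 1 probe per gene, the brightest. With overexpression 2 of 63 rose and 3 fell, beside 8.07% of the 10805 genes tested (4.41% higher and 3.66% lower). With silencing 0 rose and 1 fell, beside 0.157% of all genes (0.0278% higher and 0.13% lower). The difference between the 2 effects was called for 2 of 63, both higher, beside 3.52% of all genes (2.05% higher and 1.46% lower). The median log2 fold change of the 63 genes was 0.00 with overexpression and -0.04 with silencing, beside 0.00 and -0.02 over all genes.

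Above the MAP2Ks, 12 of 13 kinases were tested and none was called, beside 8.07% of all genes with overexpression and 0.157% with silencing. The largest values were 0.49 for TAOK3 with overexpression (adjusted p = 0.084 from limma) and -0.63 for MAP3K6, a relative of MAP3K5, with silencing (adjusted p = 0.18 from limma). TAOK3, a stress-responsive MAP3K, read 8.10 and 8.25 in ESRP1-overexpressing cells, against 7.78 and 7.59 in Empty cells, and 7.52 and 7.26 in ESRP1-silenced cells, against 7.76 and 7.73 in Scr cells. Its groups thus stood in the same order as those of MAP2K3, without passing either test (adjusted p = 0.34 from limma for silencing). Of 10 adaptors, activators and inhibitors of MAP3Ks, 1 (GADD45G) fell with overexpression, beside 3.66% of all genes called lower. GADD45G, a stress-inducible activator of MAP3K4, read 6.74 and 6.80 in ESRP1-overexpressing cells, neither detected, against 7.76 and 7.87 in Empty cells, at least 1.70-fold lower in ESRP1-overexpressing cells (adjusted p = 0.013 from limma). With silencing its log2 fold change was -0.04 (adjusted p = 0.95 from limma). The overexpression call failed without Empty replicate 2 (adjusted p = 0.054), ESRP1-overexpressing replicate 1 (0.075) or replicate 2 (0.060). GADD45A, of the same family, gave 0.48 on its brightest probe (adjusted p = 0.14 from limma) and 0.51 on a dimmer one (adjusted p = 0.041 from limma) with overexpression. MAP3K20 (ZAK) gave 0.00 on its brightest probe with overexpression, while a dim probe passed the test (adjusted p = 0.014 from limma) with both ESRP1-overexpressing arrays, at 6.17 and 6.15, not detected, against 7.05 and 7.22 in Empty cells. None of the 3 scaffold genes tested was called, with 0.42 for MAPK8IP3 and 0.03 for SPAG9 with overexpression.

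In the other MAP kinase modules, 1 of 9 genes tested was called with overexpression, beside 8.07% of all genes, and none with silencing. This list also held MAPK11 and MAPK12, which are p38 kinases. MAPK12 gave -0.09 with overexpression and 0.17 with silencing, neither called, and MAPK11 had no tested probe. MAPK3 (ERK1), the kinase of the growth factor branch, read 11.34 and 11.41 in ESRP1-overexpressing cells, against 11.87 and 12.15 in Empty cells (log2 fold change -0.64, adjusted p = 0.033 from limma). It did not differ detectably between ESRP1-silenced and Scr cells (-0.03, adjusted p = 0.95 from limma). Its second probe gave -0.53 with overexpression (adjusted p = 0.054 from limma). The call held when Empty replicate 1 was left out (adjusted p = 0.042) and was lost without any other single array (adjusted p from 0.056 to 0.15). The 3 MAP2Ks of these modules that were tested, MAP2K1, MAP2K2 and MAP2K5, were not called. MAP2K2 read 9.96 and 11.23 in ESRP1-overexpressing cells, either side of 10.60 and 10.61 in Empty cells, and its log2 fold change of -0.01 moved between -0.64 and 0.62 on omitting 1 array. With silencing it was -0.33, and -0.57 to -0.09 on omitting 1 array. MAP2K5 was not detected in ESRP1-overexpressing or Empty cells.

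Downstream of p38, 20 genes were tested and 1 was called with overexpression, beside 8.07% of all genes, and none with silencing. DDIT3 (CHOP), a stress transcription factor that p38 phosphorylates, read 9.31 and 9.45 in ESRP1-overexpressing cells, against 10.14 and 10.03 in Empty cells (log2 fold change -0.71, adjusted p = 0.043 from limma). It read 9.55 and 9.33 in ESRP1-silenced cells, against 9.42 and 9.10 in Scr cells (0.19, adjusted p = 0.65 from limma). The overexpression call failed whichever array was omitted (adjusted p from 0.053 to 0.18). The nuclear kinase RPS6KA5 (MSK1) gave -0.63 with overexpression (adjusted p = 0.093 from limma), and its relative RPS6KA4 gave -0.14. ZFP36, which encodes tristetraprolin, the mRNA-destabilising substrate of MAPKAPK2, read 10.76 and 10.78 in ESRP1-overexpressing cells, against 10.32 and 10.31 in Empty cells (0.46, adjusted p = 0.058 from limma). HNRNPA0, an mRNA-binding substrate of MAPKAPK2, gave 0.23 with overexpression and 0.25 with silencing, neither called.

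The negative regulators of p38 included DUSP1 (MKP-1), the stress-induced phosphatase that inactivates p38 and JNK. It read 10.89 and 10.95 in ESRP1-overexpressing cells, against 10.60 and 10.65 in Empty cells (log2 fold change 0.29, adjusted p = 0.15 from limma). It read 10.22 and 10.23 in ESRP1-silenced cells, against 10.81 and 10.93 in Scr cells (-0.65, adjusted p = 0.12 from limma). Neither effect was called alone, whereas the difference between them was, at 0.94 (standard error 0.15, adjusted p = 0.029 from limma). It too failed whichever array was omitted (adjusted p from 0.068 to 0.11). DUSP8, which acts on JNK and p38, read 6.88 and 8.06 in ESRP1-overexpressing cells, of which only replicate 2 was detected, against 6.26 and 6.67 in Empty cells, neither detected. The change was not called (adjusted p = 0.14 from limma). No lower bound of the fold is given, since ESRP1-overexpressing replicate 1 was not detected. Without ESRP1-overexpressing replicate 1 the probe was called (adjusted p = 0.031 from limma), and without replicate 2 it was detected on no array of the comparison. DUSP8 was detected on both ESRP1-silenced and both Scr arrays, with a log2 fold change of -0.12 (adjusted p = 0.92 from limma). None of the 6 phosphatases tested was called in either comparison, beside 8.07% of all genes with overexpression and 0.157% with silencing.

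Among the mRNAs known to be stabilised through MAPKAPK2, 3 of 10 were tested, PTGS2, IER3 and CXCL8, since the others were detected on too few arrays or had no named probe. PTGS2, which encodes the prostaglandin-forming enzyme cyclooxygenase-2, read 11.72 and 11.90 in ESRP1-overexpressing cells, against 11.08 and 11.20 in Empty cells. It read 10.54 and 10.37 in ESRP1-silenced cells, against 11.59 and 11.61 in Scr cells. PTGS2 rose with overexpression (log2 fold change 0.67, standard error 0.13, adjusted p = 0.028 from limma) and fell by 1.15 on the log2 scale with silencing (adjusted p = 0.047 from limma). Its second probe gave 0.63 and -1.40 (adjusted p = 0.036 and 0.047 from limma). The difference between the effects was 1.81 (standard error 0.18, adjusted p = 0.0071 from limma) and stayed called on leaving out any 1 array (adjusted p from 0.020 to 0.047). The silencing call failed whichever array was omitted (adjusted p from 0.073 to 0.32). The overexpression call was lost without either Scr array (adjusted p = 0.058), either Empty array (0.096 and 0.070) or either ESRP1-overexpressing array (0.087 and 0.14). IER3, an immediate early gene of stress and survival, read 12.18 and 12.13 in ESRP1-overexpressing cells, against 11.45 and 11.39 in Empty cells (0.74, adjusted p = 0.019 from limma). In silencing its change was -0.09 (adjusted p = 0.78 from limma), and the difference of its effects just missed the threshold (0.83, adjusted p = 0.054 from limma). Its overexpression call was lost without either Empty array (adjusted p = 0.057 and 0.073) or either ESRP1-overexpressing array (0.10 and 0.080). CXCL8 (interleukin-8) gave 0.04 with overexpression and 0.48 with silencing, neither called.

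**Figure D4:**
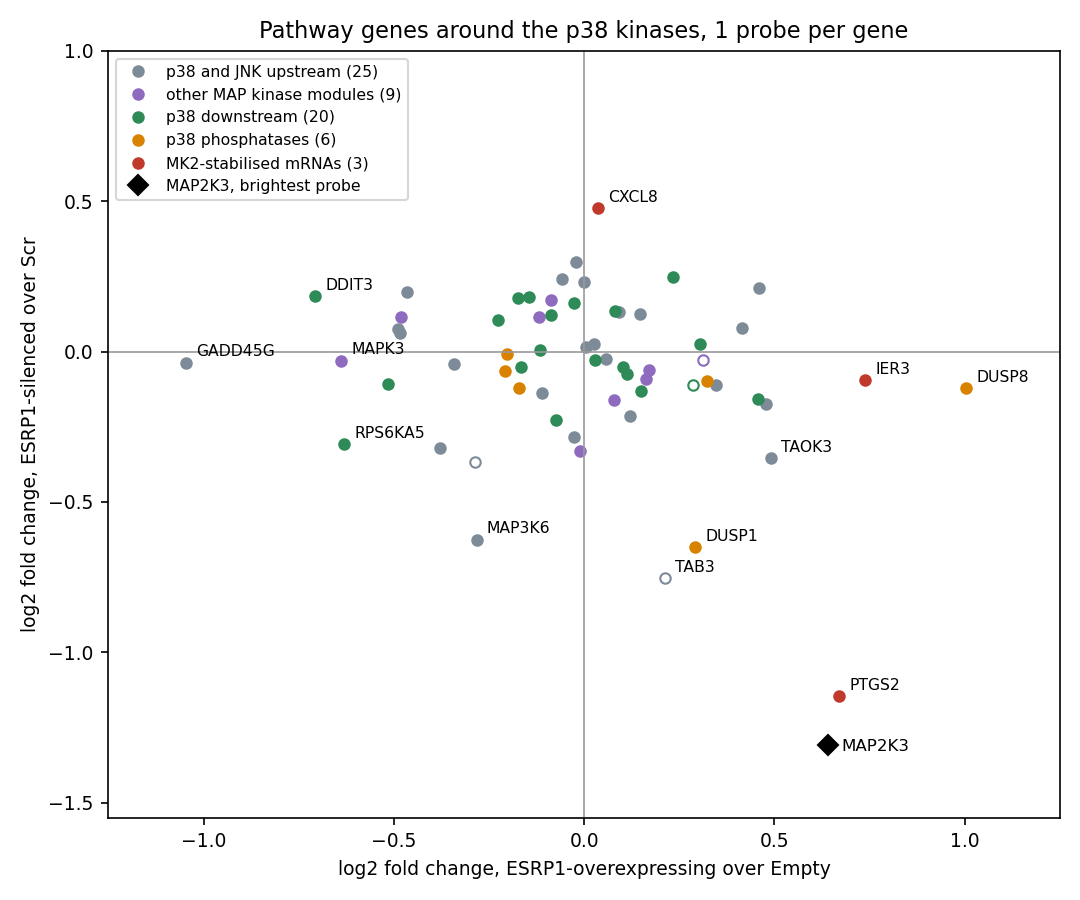
Log2 fold change of 63 pathway genes with overexpression (x axis, ESRP1-overexpressing over Empty) and with silencing (y axis, ESRP1-silenced over Scr), coloured by list, with MAP2K3 as a diamond. Open circles are genes not detected on any array of 1 comparison. PTGS2 at 0.67 and -1.15 lies next to MAP2K3 at 0.64 and -1.31, and GADD45G lies farthest left at a fitted -1.05.

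The probes whose profile over the 8 arrays lay nearest to that of ILMN_1790534 were sought among 14320 tested probes with 1 symbol, by the distance between log2 levels centred on each probe's own mean. The 6 nearest were ID1 (distance 0.60, Pearson r 0.96), AKAP19 (0.65, 0.97), TIMP3 (0.65, 0.94), PTGS2 (0.71, 0.95), ANKLE1 (0.71, 0.95) and PRNP (0.73, 0.93), all over the same 8 arrays of 4 groups. ID1 is an inhibitor of basic helix-loop-helix transcription factors, AKAP19 a small anchor of protein kinase A, ANKLE1 an endonuclease, TIMP3 an inhibitor of metalloproteinases and PRNP the prion protein. They were chosen for the likeness, so their changes are a description. With overexpression they ranged from 0.13 for ANKLE1 to 0.91 for PRNP, and with silencing from -1.15 for PTGS2 to -0.81 for ID1. ESRP1 itself had a Pearson r of 0.95 with MAP2K3, but with larger swings its distance was 1.90, and it ranked 4919.

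**Figure D5:**
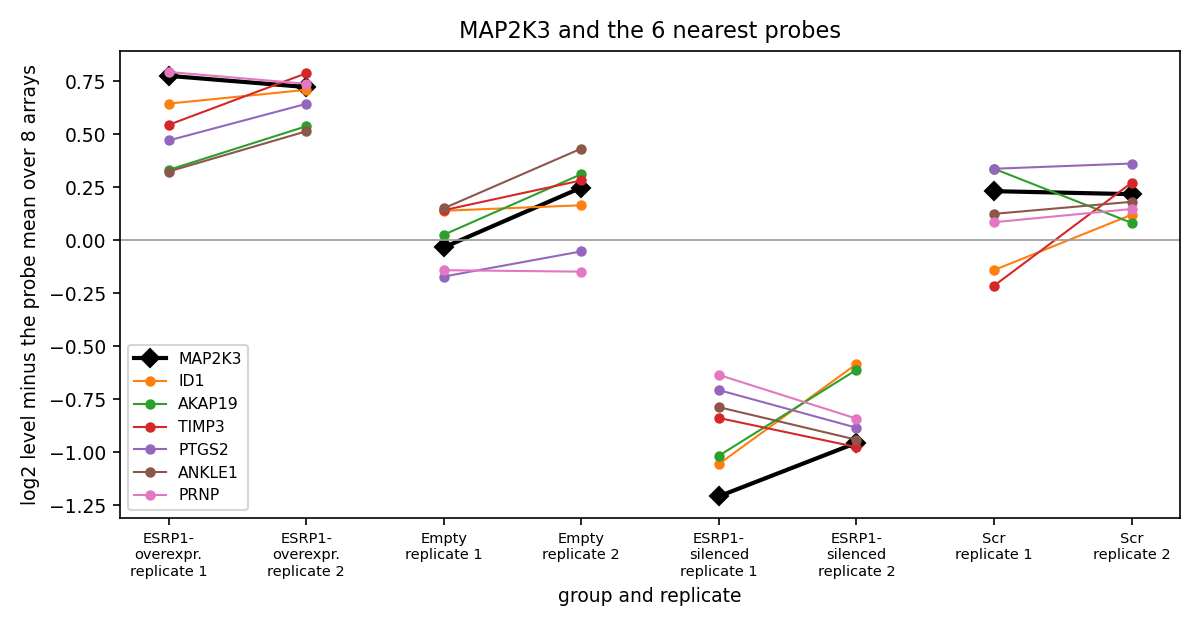
Log2 level minus the probe's mean over 8 arrays (y axis) for the brightest MAP2K3 probe and its 6 nearest probes, by group and replicate (x axis). Lines join the 2 replicates of a group, which have no order. All 7 probes are above their mean on the ESRP1-overexpressing arrays and below it on the ESRP1-silenced arrays.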

How the data were processed

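RNA of 8 arrays was hybridised to Illumina BeadChips with 47322 probes. Per the file headers and labels, the authors deposited probe intensity values that were neither normalized nor background-subtracted, each with a deposited detection p-value (88 cells held a comma and were set to 1). Their second deposited table, of intensities normalized by a method not given in the sources used here, was put on the log2 scale, since the authors left it linear, and served as an alternative. Here neqc (limma 3.58.1, R 4.3.3, offset 16) corrected and quantile-normalized the signals to log2. Probes detected on at least 2 arrays entered 1 fit of the 4 groups, which had 4 residual degrees of freedom and a prior of 2.8, and was checked on simulated data.

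The members and gene lists were chosen with earlier results of these data known. By rule the text names every member, called pathway genes, otherwise up to 2 per role by size of change, and the 6 probes nearest to MAP2K3. GADD45A, MAP3K20, CXCL8, MAP2K1, MAPK11 and MAPK12 were named after their values were seen. An "at least" fold sets the brighter group's mean against the mean, over the dimmer group's arrays, of the probe's own value or the lowest detected value, whichever was higher. Such a fold is given only where both arrays of the brighter group were detected. The number of arrays limits the precision. Alternatives were 2 other normalizations, chips normalized apart, 2 detection filters, 4 arrays alone, a replicate block, each array left out, another variance prior, the methods' t-test (p under 0.01, over 1.5-fold) and another probe per gene.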

Additional observations from a re-analysis of the deposited data

Results flagged for a closer look

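The MAP2K3 probes ILMN_1790534 and ILMN_1801175 moved in opposite directions with overexpression and silencing on all arrays. The third tested probe, ILMN_1815238, had fitted values of the same signs but was detected on only 2 arrays. The overexpression effect minus the silencing effect, on the log2 scale, was 1.95 for ILMN_1790534, 1.87 for ILMN_1801175 and 1.62 for ILMN_1815238, and this difference was not tested because MAP2K3 was chosen for it. ILMN_1815238 was not detected on any Empty or ESRP1-silenced array, so its value is fitted on levels below the detection limit and is no bound. ESRP1, the targeted gene, differed between the effects by a fitted 3.68 (adjusted p = 0.0019 from limma), a value that rests on ESRP1-silenced arrays on which it was not detected. PTGS2 differed by 1.81 (adjusted p = 0.0071 from limma). DUSP1 differed by 0.94 (adjusted p = 0.029 from limma), with neither effect called alone. The 2 effects share no arrays.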

How the results depend on the processing

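The signs of the 3 tested MAP2K3 probes held under every alternative run. On the brightest probe the silencing value was -1.13 with quantile normalization alone and -1.12 with the authors' values, and -1.43 to -1.18 on leaving out 1 array. With quantile normalization alone, calls numbered 2173 for overexpression, 233 for silencing and 1208 for their difference, with 1 member probe (MAPK13, overexpression) and 2 pathway genes for silencing. With the authors' values they were 2140, 219 and 1182, with 2 pathway genes for silencing. Of the silencing calls 25% were higher among the 24 reported, 45.1% with quantile normalization and 45.7% with the authors' values. With each chip normalized apart silencing gave 46 calls. Without a detection filter the counts were 508, 0 (3541 at an unadjusted p under 0.05) and 166, with 1 and 0 pathway genes and ESRP1 at -1.91 (adjusted p = 0.14 from limma) for silencing. With detection on all 8 arrays calls numbered 1750 for overexpression, 237 for silencing and 1039 for the difference. Pathway genes called were then 8 for overexpression and 2 for silencing. Pathway gene counts given in pairs are for overexpression, then silencing. A fit of only 4 arrays gave 142 calls for overexpression and 0 for silencing (2311 at an unadjusted p under 0.05), 0 pathway genes in each, and ESRP1 at 1.77 (adjusted p = 0.057 from limma) and -1.91 (adjusted p = 0.10 from limma). A trended, robust prior gave 2557, 549 and 1640 calls, 8 and 2 pathway genes and 1 member probe (MAPK13). The methods' t-test gave 452 and 125 calls and 2 and 3 pathway genes. After Benjamini-Hochberg, without the fold filter, it gave 0 and 0 calls (3318 and 1701 at an unadjusted p under 0.05), with 0 pathway genes in each. Leaving out 1 array gave 376 to 998 calls for overexpression, 0 for silencing by limma (1435 to 2508 at an unadjusted p under 0.05) and 91 to 349 for the difference, 0 to 3 and 0 pathway genes, and ESRP1 from -2.06 to -1.77 in silencing. Some alternatives also changed the number of arrays or probes tested, and the cause of these shifts was not tested.

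Replicate numbers were shared between groups, and deviations of same-numbered arrays correlated at 0.02 and 0.06. Such correlations cannot show whether same-numbered arrays shared a culture or a processing date, which the sources do not state. With the replicate number as a block, calls numbered 1061 for overexpression, 0 for silencing (2430 at an unadjusted p under 0.05) and 351 for the difference, with 4 and 0 pathway genes, 0 member probes, and ESRP1 at -1.91 in silencing (adjusted p = 0.12 from limma).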
